A study of Mus musculus with 8 samples.

Results

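Bone morphogenetic proteins (BMPs) and transforming growth factors beta (TGF-betas) are secreted ligands that bring type I and type II receptor kinases together. The activated type I receptor phosphorylates receptor-regulated Smad proteins, which enter the nucleus with the common Smad and switch target genes on or off, the Id genes being among the best known targets of the BMP branch. In the embryonic gut, BMP signals act on the migration, clustering and differentiation of enteric neural crest cells, which give rise to gut neurons and glia, and secreted antagonists limit where the ligands act. The 34 genes described here are ligands, receptors, antagonists, Smads and Id genes of these pathways, chosen by gene symbol from the 18561 genes of the deposited table, in which all 34 were found and all 34 passed the filter on low counts.

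The study sorted enteric neural crest cells of the mouse gut at embryonic day 14.5, after dissociation, with antibodies against CD271 and CD57, and sequenced amplified full-length cDNA of about 200 cells in a tube. Of the 8 libraries, 5 were labelled Emb knockdown and 3 were labelled WT. Age, tissue, sort and antibodies were the same in both groups. The labels named no strain, method of knockdown, driver of it or number of animals, so the p-values take in only library-to-library spread, and part or all of that may be technical.

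The 8 libraries held 20116607 to 26959265 expected counts and 15079 to 17049 genes with at least 1 count. Levels are given as CPM, counts divided by the library size and scaled with the TMM factors of the 8 libraries, and 3 counts corresponded to 0.0966 to 0.155 CPM. Emb, the targeted gene, was at 353, 349, 37.2, 21.4 and 21.7 CPM in knockdown-labelled libraries 1 to 5 and at 16.9, 17.7 and 15.9 CPM in WT libraries 1 to 3. None of the 5 carrying the knockdown label was below WT, so each direction below is a difference between labels. Knockdown-labelled libraries 1 and 2 stood apart from the other 6. The summed level of 12 macrophage and leukocyte genes was 23422 and 19585 CPM in them, 1157 to 2038 CPM in knockdown-labelled libraries 3 to 5 and 280 to 508 CPM in WT, and 0 of the 12 genes were at 0 in any library. The summed level of 12 progenitor genes of the enteric neural crest was 220 and 172 CPM in these 2 libraries, 1050 to 1190 CPM in knockdown-labelled libraries 3 to 5 and 3122 to 3145 CPM in WT, and in knockdown-labelled library 2 Sox10, Foxd3 and Tlx2 were at 0. Markers of the labelled cell type were thus lowest in these 2 libraries, and results are given for all 8 libraries and for the 6 without them.

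**Figure D1:**
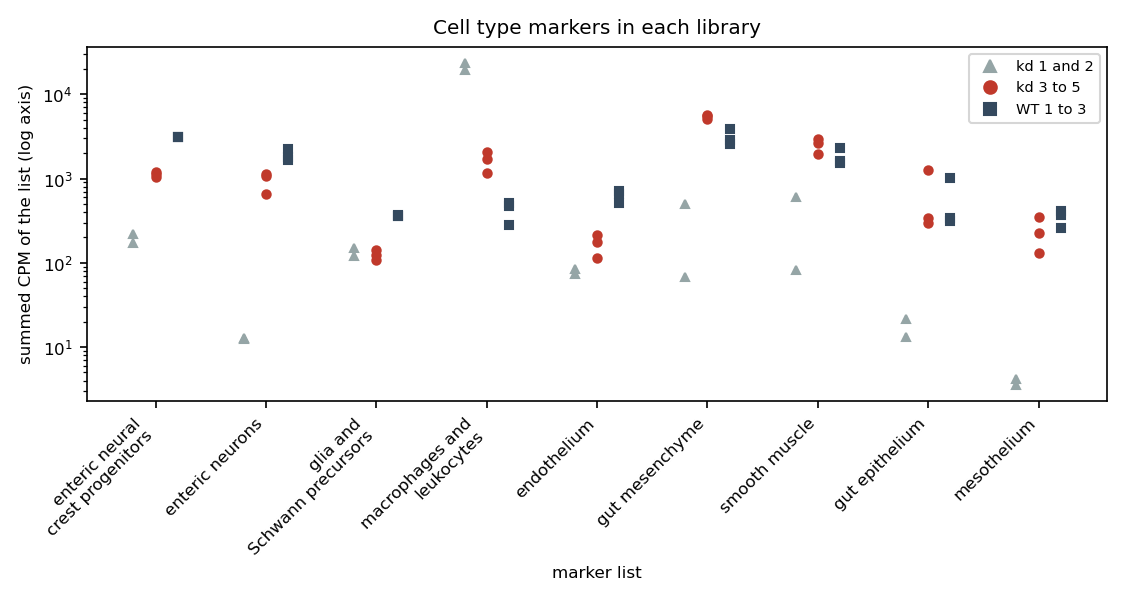
Summed CPM (log axis) of each cell type marker list in each library, 1 point per library; triangles are knockdown-labelled libraries 1 and 2, circles those labelled knockdown 3 to 5 and squares WT. The leukocyte list reaches 23422 and 19585 CPM in the triangles against at most 2038 CPM elsewhere, and the progenitor list lies between 3122 and 3145 CPM in WT and at or below 1190 CPM in all libraries labelled knockdown.

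Most of the 34 genes were lower in knockdown-labelled libraries 1 and 2 than in any other library. In both of these libraries 23 of 34 members were below all other 6 libraries, which held for 31.8% of the 15411 genes tested. Another 5 members, Bmp2, Tgfb1, Tgfbr1, Tgfbr2 and Smad3, were above all others in both, against 28.1% of all genes. Bmpr1b was at 1 count in knockdown-labelled library 1 and at 0 in knockdown-labelled library 2, and Chrd and Grem1 were at 0 in knockdown-labelled library 1, which allows up to 0.155 CPM there (0.141 CPM for Bmpr1b in library 2, counting error only). The heat map of the members shows these 2 libraries as a separate pair of columns.

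**Figure D2:**
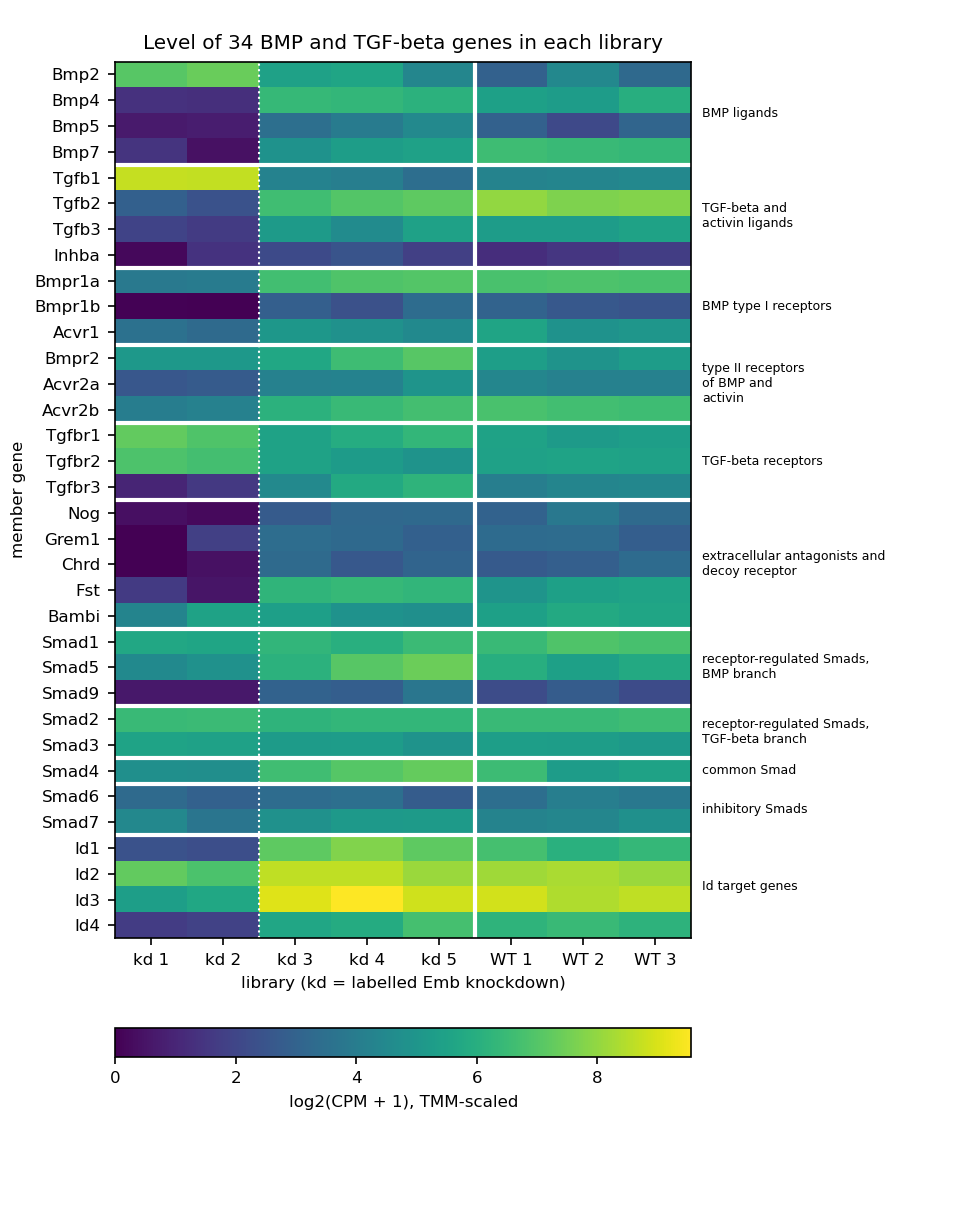
Level of each of the 34 members, as log2(CPM + 1) by colour, in the 8 libraries; rows are grouped by role, the dotted line parts knockdown-labelled libraries 1 and 2 from those labelled knockdown 3 to 5, and the solid line parts the latter from WT. In the 2 leftmost columns 23 members are lower and 5 higher than in every other library.

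With all 8 libraries, no member passed the threshold. EdgeR's quasi-likelihood test called 0 of 34 members at a Benjamini-Hochberg adjusted p under 0.05, and 0 of all 15411 genes (0%), with a smallest adjusted p among members of 0.162, for Bmp2. At an unadjusted p under 0.05 there were 3 members, Bmp2, Tgfbr1 and Smad1, against 18.6% of all genes. DESeq2's Wald test called 2 members and limma voom with quality weights 6, with 2220 and 3720 genes called in all. CPM values of the groups did not overlap for 2 members, Bmp7 and Tgfb2, both lower in every library labelled knockdown, against 22.7% of all genes. The median log2 fold change of the members was -0.13 and that of all genes 0.07.

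Without knockdown-labelled libraries 1 and 2, a choice made with their values known, 11 of the 34 members changed, 9 upwards and 2 downwards under the knockdown label. EdgeR's test called 20.4% of all 15115 genes, 11.1% higher and 9.37% lower, so the higher calls were a larger share of the members (26.5%) and the lower calls a smaller share (5.88%) than of all genes. DESeq2's Wald test also called 11 members, 9 higher and 2 lower. It called more of all genes than edgeR, 4538, with 2449 higher and 2089 lower. Whether the members differ from other genes was not tested. The members had a median log2 fold change of 0.14 against 0.02 over all genes, and the groups did not overlap for 16 of 34 members, against 43.4% of all genes. An unadjusted p under 0.05 was reached by 16 members, against 37.5% of all genes. Of the genes called, rather than of those tested, 54.1% were higher with TMM and 38.4% on log2(FPKM + 1). Of the members called, 81.8% were higher with TMM, and on log2(FPKM + 1) 5 members were called higher and 2 lower. Cell type markers also changed between these groups: of 12 leukocyte genes 11 rose, of 10 mesenchyme genes 7 rose, of 10 endothelial genes 9 fell and of 12 progenitor genes 9 fell. Of 10 enteric neuron genes 5 fell, of 8 glial genes 4 and of 5 mesothelium genes 2. Of 6 smooth muscle genes 1 rose, and of 7 epithelium genes 0 passed. The neuron genes summed to 655 to 1131 CPM in knockdown-labelled libraries 3 to 5 and to 1681 to 2218 CPM in WT. The glial genes summed to 109 to 140 CPM and 361 to 371 CPM. The summed level of the mesenchyme genes was 5137 to 5626 CPM in knockdown-labelled libraries 3 to 5 and 2585 to 3868 CPM in WT, and that of the endothelial genes 114 to 214 CPM and 510 to 720 CPM. The part of these markers in the members' changes was not tested, and in bulk samples fewer cells of a type and less RNA per cell cannot be told apart.

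**Figure D3:**
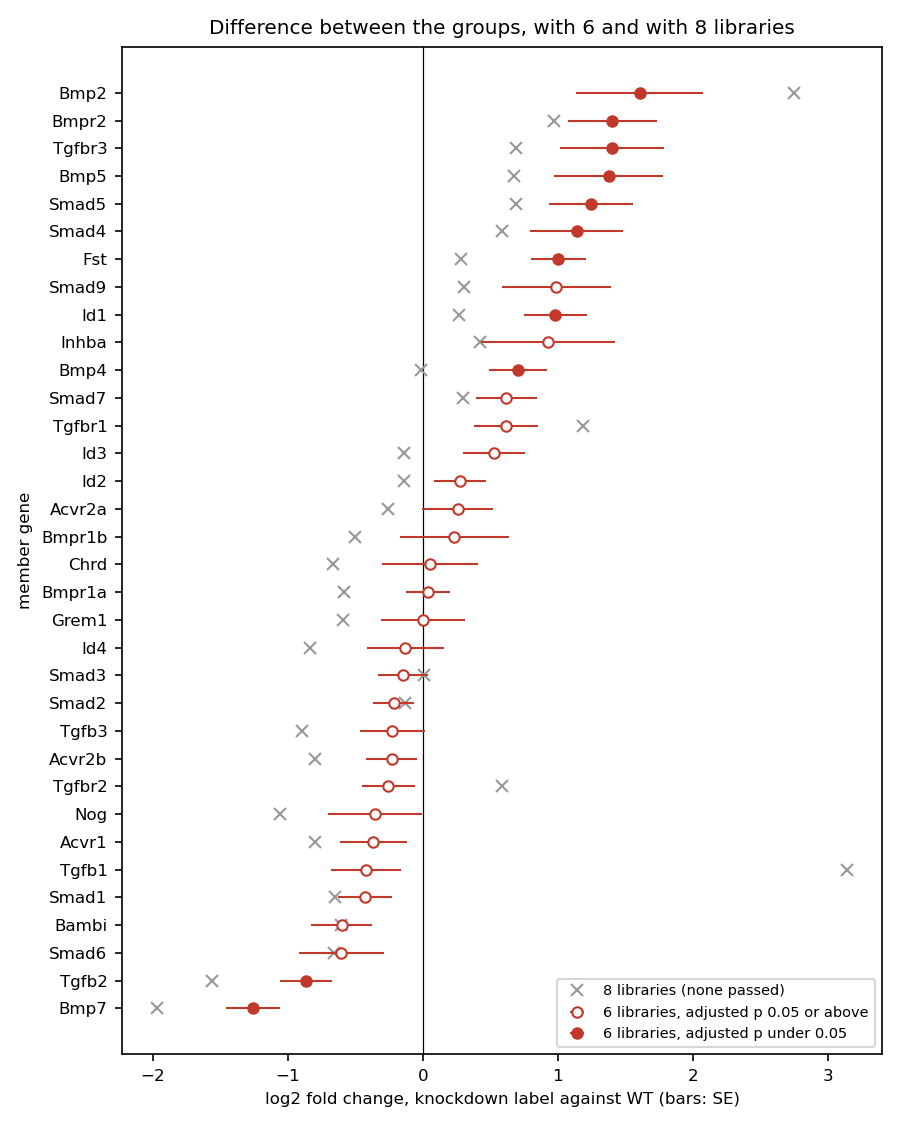
Log2 fold change of each member between libraries labelled knockdown and WT; circles with SE bars are the comparison of 6 libraries, filled where the adjusted p is under 0.05, and grey crosses are the comparison of 8 libraries, where none passed. With 6 libraries 11 members are filled, 9 to the right of 0 and 2, Tgfb2 and Bmp7, to the left.

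All 4 BMP ligand genes changed with 6 libraries, in opposite directions, where 20.4% of all genes were called. Bmp7, on chromosome 2 from 172868012 to 172940321 of GRCm38.p6, encodes a ligand with broad roles in epithelial and mesenchymal development. It was at 28.6, 39.1 and 43.0 CPM in knockdown-labelled libraries 3, 4 and 5 and at 95.3, 88.6 and 81.7 CPM in WT libraries 1, 2 and 3, so every WT library lay above every library labelled knockdown. Bmp7 fell by 1.26 ± 0.20 on the log2 scale (SE, adjusted p = 0.00928, edgeR), and was also lower, at 1.70 and 0.330 CPM, in knockdown-labelled libraries 1 and 2. Bmp4, on chromosome 14 from 46383525 to 46390669, encodes a ligand made by gut mesenchyme among other tissues. It was at 82.5, 79.9 and 70.2 CPM in knockdown-labelled libraries 3, 4 and 5 and at 42.7, 38.1 and 62.2 CPM in WT. The groups did not overlap, and Bmp4 rose with a log2 fold change of 0.71 ± 0.22 (adjusted p = 0.0494). That call was lost without a filter on low counts (adjusted p = 0.0534) and without a composition factor (0.0676).

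Bmp5, a close relative of Bmp7 in sequence, was at 10.1, 14.7 and 21.4 CPM in knockdown-labelled libraries 3, 4 and 5 and at 6.74, 3.35 and 7.78 CPM in WT. The groups did not overlap, and its log2 fold change was 1.38 ± 0.40 (adjusted p = 0.0442). Bmp2, a ligand close to Bmp4 that muscularis macrophages of the gut are known to release, was at 133 and 165 CPM in knockdown-labelled libraries 1 and 2. It was at 43.4, 47.7 and 19.7 CPM in libraries 3, 4 and 5 of that label and at 6.74, 20.9 and 8.73 CPM in WT, where the highest WT library lay just above the lowest library labelled knockdown. Bmp2 rose with a log2 fold change of 1.61 ± 0.47 (adjusted p = 0.0442). Without knockdown-labelled library 4 none of these 4 calls remained (adjusted p = 0.166 for Bmp2, 0.149 for Bmp4, 0.127 for Bmp5 and 0.0560 for Bmp7). The leukocyte list was highest in the same 2 libraries as Bmp2, and its part in the Bmp2 level was not tested.

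The summed level of the 4 BMP ligands, as TPM, which is scaled to gene length and so allows genes to be compared, was 86.0 to 88.2 in knockdown-labelled libraries 3 to 5 and 80.5 to 101 in WT. The make-up of that sum differed. Bmp7 made up 50.5%, 47.9% and 38.0% of it in WT libraries 1, 2 and 3 and 12.01% to 19.3% in knockdown-labelled libraries 3 to 5, without overlap. Bmp4 made up 38.7% to 54.4% in WT and 60.2% to 65.1% in knockdown-labelled libraries 3 to 5. The TPM ratio of Bmp4 to Bmp7 was 0.841, 0.810 and 1.43 in WT and 5.42, 3.96 and 3.23 in knockdown-labelled libraries 3, 4 and 5. In knockdown-labelled libraries 1 and 2 this ratio was 1.83 and 7.80, while Bmp2 alone made up 96.2% and 97.9% of the BMP ligand sum. These shares were chosen after the values were seen and are given without a test.

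**Figure D4:**
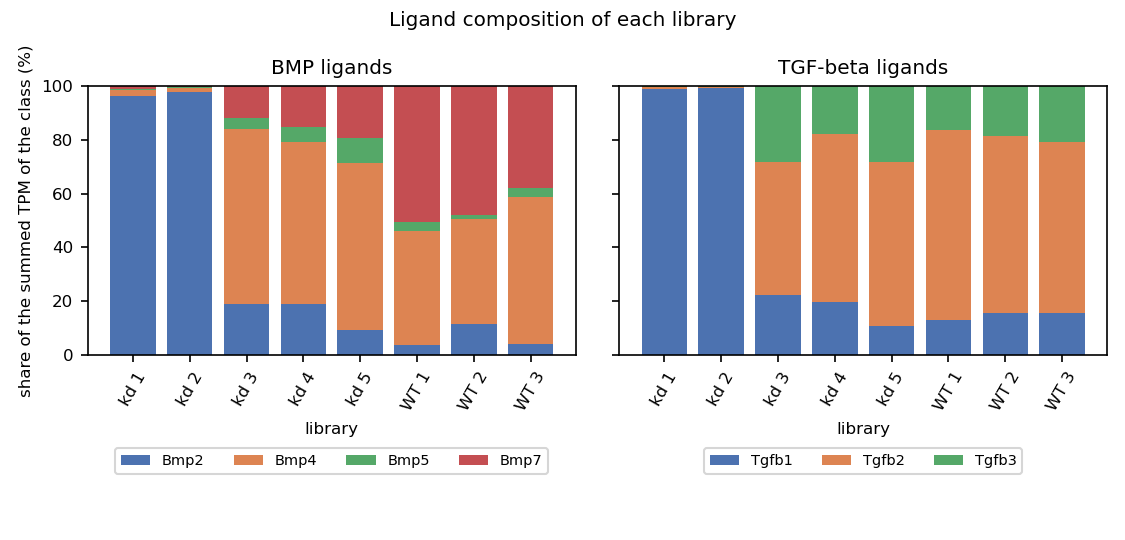
Share (%) of each ligand gene in the summed TPM of the 4 BMP ligands (left) and the 3 TGF-beta ligands (right) in each library. Bmp2 and Tgfb1 take nearly the whole bar in knockdown-labelled libraries 1 and 2 (at least 96.2% and 99.0%), and the Bmp7 part is smaller in knockdown-labelled libraries 3 to 5 (12.01% to 19.3%) than in WT (38.0% to 50.5%).

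Of the 4 TGF-beta and activin ligands, only Tgfb2 passed the threshold with 6 libraries, against 20.4% of all genes, and it fell. Tgfb2, on chromosome 1 from 186622787 to 186709697, encodes an isoform needed for normal development of the heart and face. It was at 98.8, 127 and 145 CPM in knockdown-labelled libraries 3, 4 and 5 and at 253, 207 and 217 CPM in WT, without overlap. Its log2 fold change was -0.87 ± 0.19 (adjusted p = 0.0202), and the call was lost without knockdown-labelled library 4 (adjusted p = 0.0850). In knockdown-labelled libraries 1 and 2 it was at 6.59 and 4.33 CPM. Tgfb1, the isoform most abundant in blood and immune cells, showed the opposite picture, with 417 and 404 CPM in those 2 libraries.

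In the remaining libraries Tgfb1 was at 17.7, 15.9 and 10.1 CPM under the knockdown label and at 18.5, 19.2 and 20.9 CPM in WT, with a difference that missed the threshold (log2 fold change -0.42 ± 0.26, adjusted p = 0.263). Tgfb1 therefore made up 99.0% and 99.2% of the summed TPM of the 3 TGF-beta ligands in knockdown-labelled libraries 1 and 2, while Tgfb2 made up 63.6% to 70.5% in WT and 49.3% to 62.3% in knockdown-labelled libraries 3 to 5. Tgfb3 was at 34.1 ± 9.91 CPM (SD, n = 3) in knockdown-labelled libraries 3 to 5 and at 39.9 ± 4.15 CPM (SD, n = 3) in WT. Inhba, which encodes the activin A subunit, was the member with the lowest TPM, at 0.467 ± 0.140 TPM in WT.

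Among the receptors, 2 of 9 rose with 6 libraries, Bmpr2 and Tgfbr3, and none fell. Of all genes 20.4% were called, 11.1% higher and 9.37% lower. Bmpr2, the type II receptor specific to BMPs, lies on chromosome 1 from 59764279 to 59878081. It was at 51.3, 96.4 and 134 CPM in knockdown-labelled libraries 3, 4 and 5 and at 40.3, 28.8 and 37.6 CPM in WT. The groups did not overlap, although knockdown-labelled library 3 was closer to WT than to knockdown-labelled library 5. The log2 fold change of Bmpr2 was 1.40 ± 0.33 (adjusted p = 0.0230). Tgfbr3, which encodes betaglycan, a co-receptor that presents TGF-beta 2 and also binds BMPs and inhibin, was at 21.9, 54.3 and 72.8 CPM in knockdown-labelled libraries 3, 4 and 5 and at 16.2, 19.6 and 20.7 CPM in WT. Knockdown-labelled library 3 lay only just above the highest WT library, and Tgfbr3 had the widest spread of any member among knockdown-labelled libraries 3 to 5, with the highest 3.33 times the lowest. It was 1 of 15 members that were lowest in library 3 and highest in library 5 of these 3, against 25% of all genes.

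Tgfbr3 rose with a log2 fold change of 1.40 ± 0.38 (adjusted p = 0.0367). Without knockdown-labelled library 4 the calls of Bmpr2 and Tgfbr3 were lost (adjusted p = 0.0927 and 0.130), and without knockdown-labelled library 5 as well (0.0522 and 0.0980). The type I BMP receptor gene Bmpr1a was the most abundant BMP receptor, at 33.7 ± 3.38 TPM in WT, and lay at 99.6, 120 and 126 CPM in knockdown-labelled libraries 3, 4 and 5 and at 111, 116 and 110 CPM in WT. Its log2 fold change of 0.04 ± 0.16 did not pass (adjusted p = 0.883). The other type I receptor genes, Bmpr1b and Acvr1, were at 5.68 ± 1.33 and 35.4 ± 9.89 CPM in WT and at 6.66 ± 2.63 and 27.4 ± 4.86 CPM in knockdown-labelled libraries 3 to 5 (SD, n = 3). Of the activin type II receptor genes, Acvr2b was at 69.5, 89.1 and 103 CPM against 111, 99.9 and 95.8 CPM in WT (log2 fold change -0.23 ± 0.19, adjusted p = 0.397), and Acvr2a was at 21.8 ± 7.26 against 18.3 ± 1.63 CPM.

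The signalling receptors of TGF-beta were higher in knockdown-labelled libraries 1 and 2 than in any other. Tgfbr1, the type I receptor, was at 151 and 122 CPM in those 2, at 44.4, 60.2 and 80.0 CPM in libraries 3, 4 and 5 of that label and at 44.9, 35.8 and 39.8 CPM in WT. With 6 libraries its log2 fold change was 0.62 ± 0.23, which did not pass (adjusted p = 0.0920). It passed without knockdown-labelled library 3 (adjusted p = 0.0102). Tgfbr2, the type II receptor, was at 118 and 102 CPM in knockdown-labelled libraries 1 and 2 and at 29.3 to 45.5 CPM in the other 6.

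Of the secreted antagonists and the decoy receptor, 1 of 5 passed with 6 libraries, Fst, against 20.4% of all genes. Fst, on chromosome 13 from 114452262 to 114458989, encodes follistatin, which binds activins with high affinity and several BMPs more weakly. It was at 75.2, 84.3 and 76.7 CPM in knockdown-labelled libraries 3, 4 and 5 and at 29.6, 42.5 and 45.7 CPM in WT, without overlap. Fst rose with a log2 fold change of 1.00 ± 0.20 (adjusted p = 0.0157), a call lost without knockdown-labelled library 4 (adjusted p = 0.0794). In knockdown-labelled libraries 1 and 2 it was at 2.06 and 0.471 CPM. The BMP antagonist genes Nog, Grem1 and Chrd, for noggin, gremlin 1 and chordin, were low in all libraries and had overlapping groups. In WT they were at 9.75 ± 3.29, 8.23 ± 1.67 and 6.99 ± 1.80 CPM, and in knockdown-labelled libraries 3 to 5 at 7.61 ± 1.69, 8.23 ± 1.5 and 7.25 ± 1.92 CPM (SD, n = 3).

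Bambi encodes a pseudoreceptor without a kinase domain that dampens signalling of both branches. It was at 41.6, 28.1 and 26.1 CPM in knockdown-labelled libraries 3, 4 and 5 and at 42.5, 54.5 and 48.6 CPM in WT. The groups did not overlap, and its log2 fold change of -0.60 ± 0.23 did not pass (adjusted p = 0.0885). It passed without knockdown-labelled library 3 (adjusted p = 0.00777).

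Of the 8 Smad genes 2 rose with 6 libraries, Smad5 of the BMP branch and the common Smad, Smad4, and none fell. Of all genes 20.4% were called, 11.1% higher and 9.37% lower. Smad5, on chromosome 13 from 56703010 to 56742378, was at 70.4, 135 and 170 CPM in knockdown-labelled libraries 3, 4 and 5 and at 61.9, 41.9 and 54.7 CPM in WT. The groups did not overlap, and its log2 fold change was 1.25 ± 0.31 (adjusted p = 0.0285). Smad4, the partner of all receptor-regulated Smads, was at 98.9, 129 and 157 CPM against 92.9, 37.6 and 44.5 CPM in WT libraries 1, 2 and 3. WT library 1 was 2.47 times WT library 2, the widest spread of Smad4 in either group, and lay just below knockdown-labelled library 3. Smad4 rose with a log2 fold change of 1.14 ± 0.34 (adjusted p = 0.0474).

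Both Smad calls were lost without knockdown-labelled library 4 (adjusted p = 0.110 for Smad5 and 0.139 for Smad4) or 5 (0.0694 and 0.116). Smad1, which also carries BMP signals, was the most abundant Smad gene in WT at 60.7 ± 13.7 TPM. It was at 77.8, 64.1 and 91.3 CPM in knockdown-labelled libraries 3, 4 and 5 and at 87.6, 120 and 107 CPM in WT, with a difference that missed the threshold (log2 fold change -0.43 ± 0.20, adjusted p = 0.147). Smad9, the third Smad of the BMP branch, was at 8.62 ± 3.38 against 4.35 ± 1.32 CPM in WT (SD, n = 3).

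The Smads of the TGF-beta branch were among the members with the most even levels over all 8 libraries, knockdown-labelled libraries 1 and 2 included. Smad2 was at 88.8, 91.6, 74.0, 79.0 and 80.1 CPM in knockdown-labelled libraries 1 to 5 and at 87.7, 89.2 and 94.6 CPM in WT. Its log2 fold change was -0.22 ± 0.15 with 6 libraries (adjusted p = 0.323) and -0.13 ± 0.16 with 8 (adjusted p = 0.721). Smad3 lay between 28.8 and 45.8 CPM in all 8 libraries. Of the inhibitory Smads, which are themselves induced by the pathways and shut the receptors down, Smad7 was at 27.2, 35.0 and 36.4 CPM in knockdown-labelled libraries 3, 4 and 5 and at 18.1, 19.7 and 26.5 CPM in WT. It missed the threshold (log2 fold change 0.62 ± 0.22, adjusted p = 0.0811), and it passed without knockdown-labelled library 3 (adjusted p = 0.0269). Smad6 was at 8.56 ± 2.34 against 13.0 ± 2.93 CPM in WT (SD, n = 3).

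**Figure D5:**
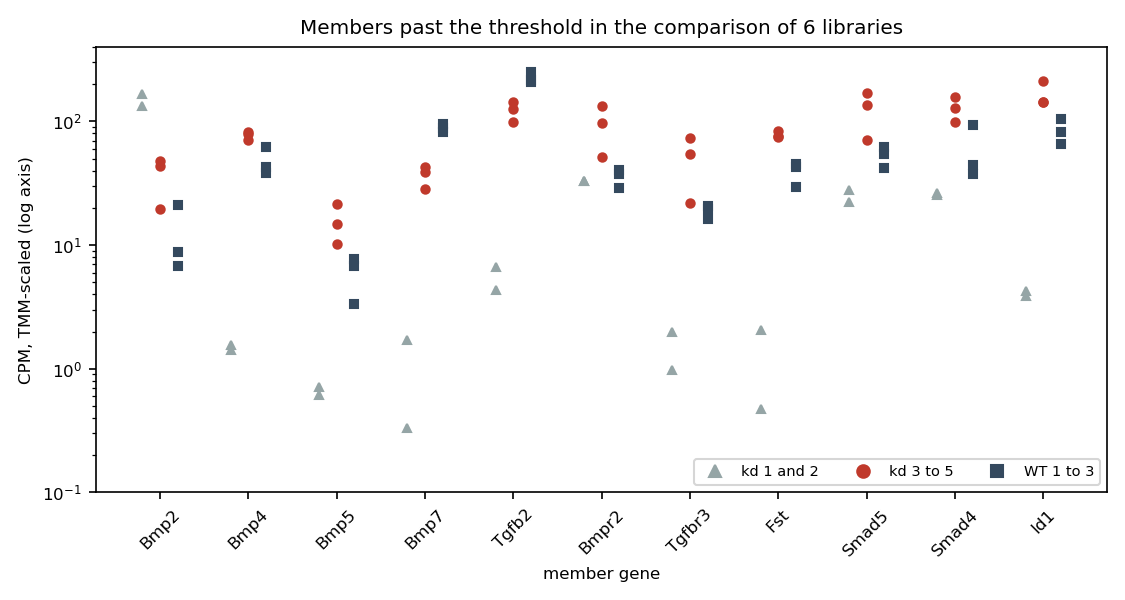
CPM (log axis) of the 11 members past the threshold with 6 libraries, 1 point per library; triangles are knockdown-labelled libraries 1 and 2, circles those labelled knockdown 3 to 5 and squares WT. Circles and squares overlap for Bmp2 only (19.7 CPM in knockdown-labelled library 5, 20.9 CPM in WT library 2), and for all members shown except Bmp2 and Bmpr2 the triangles lie below every other point.

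The Id genes encode helix-loop-helix proteins without a DNA-binding region, which hold E-proteins away from DNA. Id3, Id2 and Id1 were the most abundant members in WT, while Id4 was below Tgfb2, at 72.2 TPM, and several others. In TPM, Id3 was at 892 ± 79.6, Id2 at 455 ± 65.6, Id1 at 185 ± 26.9 and Id4 at 33.6 ± 6.23 in WT (SD, n = 3). Id1, on chromosome 2 from 152736251 to 152737410, alone of the 4 passed with 6 libraries, where 20.4% of all genes passed. It was at 143, 211 and 145 CPM in knockdown-labelled libraries 3, 4 and 5 and at 105, 65.8 and 82.2 CPM in WT, without overlap. Id1 rose with a log2 fold change of 0.98 ± 0.23 (adjusted p = 0.0247), a call lost without knockdown-labelled library 4 (adjusted p = 0.104).

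Id3 was at 549, 752 and 463 CPM against 483, 340 and 403 CPM in WT, with overlapping groups, with a difference that missed the threshold (log2 fold change 0.53 ± 0.23, adjusted p = 0.132). Id2 was at 358 ± 70.6 CPM against 296 ± 23.1 CPM and Id4 at 71.4 ± 31.0 CPM against 78.2 ± 9.46 CPM (SD, n = 3). In knockdown-labelled libraries 1 and 2 the summed TPM of the 4 Id genes was 190 and 189, against 1467 to 1969 in the other 3 of that label and 1533 to 1608 in WT. What was left there was mostly Id2, which made up 70.8% and 59.2% of the Id sum in these 2 libraries and 22.3% to 34.5% in the other 6. Id2 was at 153 and 116 CPM in the same 2 libraries and Id1 at 4.28 and 3.91 CPM. Id2 is known to be used by several leukocyte types, and the part of the leukocyte markers in its level was not tested.

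The Id genes are among the best known targets of BMP-activated Smads. The 250 bases before the RefSeq start of each Id gene in the promoter table are shown. Bmpr2, 1 of the 2 receptor genes that rose, is shown as well. Elements farther upstream lie outside these windows and were not searched. The Id genes shown are Id2, Id3 and Id4, and the promoter of Id1, the Id gene that rose, was not analysed here. Capitals mark GGCGCC, a GC-rich element of the BMP Smads, or CAGAC, the core of the element bound by Smad3, searched on both strands, so that GTCTG is the same motif on the other strand. Coordinates are those of GRCm38.p6, and each sequence runs 5′ to 3′ on the gene's own strand.
Id2, chr12:25096093-25096342, minus strand: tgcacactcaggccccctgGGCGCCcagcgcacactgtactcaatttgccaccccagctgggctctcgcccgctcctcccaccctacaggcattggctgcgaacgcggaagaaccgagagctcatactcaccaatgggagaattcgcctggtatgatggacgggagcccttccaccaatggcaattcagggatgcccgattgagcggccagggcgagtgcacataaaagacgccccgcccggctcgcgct
Id3, chr4:136143572-136143821, plus strand: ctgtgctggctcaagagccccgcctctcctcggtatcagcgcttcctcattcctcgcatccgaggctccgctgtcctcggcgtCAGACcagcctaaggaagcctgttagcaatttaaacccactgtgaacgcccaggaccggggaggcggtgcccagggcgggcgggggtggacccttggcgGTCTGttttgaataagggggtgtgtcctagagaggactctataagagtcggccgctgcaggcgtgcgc
Id4, chr13:48260866-48261115, plus strand: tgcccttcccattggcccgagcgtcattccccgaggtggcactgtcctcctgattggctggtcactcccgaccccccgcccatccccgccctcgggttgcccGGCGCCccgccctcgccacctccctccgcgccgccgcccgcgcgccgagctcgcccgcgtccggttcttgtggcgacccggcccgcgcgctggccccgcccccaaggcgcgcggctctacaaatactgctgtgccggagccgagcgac
Bmpr2, chr1:59764029-59764278, plus strand: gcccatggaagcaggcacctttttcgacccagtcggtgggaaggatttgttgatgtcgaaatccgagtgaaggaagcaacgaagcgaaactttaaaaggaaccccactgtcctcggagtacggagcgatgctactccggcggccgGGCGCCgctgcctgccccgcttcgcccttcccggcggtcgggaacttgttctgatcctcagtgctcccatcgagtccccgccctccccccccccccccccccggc
The Id2, Id4 and Bmpr2 windows each held 1 GGCGCC, which 9.59% of 32851 promoter windows of this length held. The Id3 window held 2 CAGAC motifs, 1 on each strand, and 42.2% of all windows held at least 1. The table had windows for 23 of the 34 members, of which 9 held GGCGCC and 10 held CAGAC in at least 1 window. These counts are per gene over 28 windows and the percentages are per window, so they cannot be compared directly. A match is a description of the letters and not a measured binding site.

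The remaining genes of the pathways were taken from a list of 90 other ligands, receptors, modulators, Smad regulators, targets and E-proteins. Of these, 86 were in the table and 76 were tested with 6 libraries, of which 12 rose, 5 fell and 59 did not pass. The share of calls was near the 20.4% of all genes. The median log2 fold change was 0.03 against 0.02 over all genes. With 8 libraries, 0 of 77 passed edgeR's test, 14 of them with an unadjusted p under 0.05, a share near the 18.6% of all genes. Of 12 tested ligands 1 rose, Bmp3, at 6.10 ± 1.53 CPM in WT and 19.2 ± 8.40 CPM under the knockdown label (SD, n = 3, log2 fold change 1.66 ± 0.36). Of 13 other extracellular modulators 0 passed, 1 of them with an unadjusted p under 0.05.

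Of 8 other receptors and co-receptors 1 fell, Eng, the TGF-beta and BMP9 co-receptor endoglin that is prominent in endothelium, from 83.7 ± 6.94 to 22.0 ± 13.7 CPM (-1.92 ± 0.42). The endothelial markers fell in the same libraries, and their part in the Eng level was not tested. Of 10 genes of ligand latency and activation 3 rose and 1 fell. They were led by Thbs1, for the matrix protein thrombospondin 1 that can activate latent TGF-beta, which rose from 42.9 ± 4.56 to 125 ± 21.6 CPM (1.55 ± 0.19). Ltbp3, for a latent TGF-beta binding protein, rose from 36.2 ± 2.65 to 66.8 ± 9.12 CPM (0.89 ± 0.18). In knockdown-labelled libraries 1 and 2, where the leukocyte list was highest, Thbs1 was at 649 and 390 CPM and Ltbp3 at 3.81 and 4.57 CPM. The part of the leukocyte markers in these levels was not tested.

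Of 16 intracellular regulators 5 rose and 1 fell. Ski, a Smad co-repressor, rose from 49.9 ± 15.7 to 135 ± 32.6 CPM (1.44 ± 0.28), and Tgif2, another repressor of Smad target genes, fell from 124 ± 9.63 to 72.7 ± 8.45 CPM (-0.77 ± 0.17). Of 14 other target genes 3 rose and 1 fell. Tgfbi, named for its induction by TGF-beta, rose from 189 ± 27.3 to 352 ± 12.3 CPM (0.90 ± 0.17). Pmepa1, a target that restrains TGF-beta signalling, rose from 26.5 ± 10.7 to 74.1 ± 22.3 CPM (1.49 ± 0.33). In knockdown-labelled libraries 1 and 2 Tgfbi was at 600 and 450 CPM and Pmepa1 at 17.3 and 8.05 CPM, and the part of the leukocyte markers in these levels was not tested. Of the 3 E-proteins, the partners that Id proteins bind, Tcf3 fell from 269 ± 37.0 to 121 ± 8.25 CPM (-1.15 ± 0.17, adjusted p = 0.00792). Of the pathway genes named here, Thbs1 alone passed in every comparison that left out 1 of the 6 libraries. The others were lost at least without knockdown-labelled library 4, with adjusted p from 0.0575 for Tcf3 to 0.0984 for Eng.

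The 11 member calls rested on few libraries. Leaving out any of the 6 libraries turned the direction of 0 of the 11. Their groups did not overlap except for Bmp2, so leaving out 1 library could hardly turn a direction. With all 8 libraries, where none passed, the log2 fold change of Bmp4 was -0.016, and the others kept their direction. Without knockdown-labelled library 4, 0 of the 11 passed (adjusted p from 0.0560 to 0.166), and 180 of all genes passed in place of 3090. Without WT library 3 only Bmp7 passed (the others from 0.0613 to 0.163), and without WT library 2 Bmp2 and Bmp7 passed (the others from 0.0626 to 0.191). Without WT library 1 the calls of Bmp7, Fst, Id1 and Smad4 remained (the others from 0.0570 to 0.148), and without knockdown-labelled library 5 those of Bmp2, Bmp7, Fst, Id1 and Tgfb2 (the others from 0.0522 to 0.116). Without knockdown-labelled library 3 Bmp2 alone was lost (0.0620). Bmp7 was thus the member whose call was lost only once, and its log2 fold change lay between -1.38 and -1.12 over the 13 alternatives. Of the called members, Bmp4, Bmp5, Fst and Tgfb2 share exon bases with a gene on the opposite strand, and Smad5 and Tgfbr3 with a gene on the same strand, so some of their reads could belong to those genes.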

How the data were processed

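RNA of sorted enteric neural crest cells was measured in 8 libraries, 5 labelled Emb knockdown and 3 labelled WT, grouped by their titles. Per the labels' protocols, cDNA was made with Smart-seq2, which does not mark strand and uses no molecular identifiers. HISAT, Bowtie2 and GRCm38.p6 are named in the submitters' processing notes, with the role of each, the counting tool, the annotation and the versions not given in the sources used here. The authors deposited expected counts per gene without normalisation, per the file headers, and 17.6% to 19.8% of them were not whole. Among members, Inhba, Acvr2a, Tgfbr1, Smad9 and Id3 had values that were not whole, so some of their reads were shared with other loci. The authors also deposited FPKM and TPM, which are scaled to gene length, per the file headers. The deposited normalised counts, a signal scaled by 1 factor per library, and 8 columns of group means were not used.

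Counts were rounded, filtered with filterByExpr, scaled with TMM and tested over all genes in edgeR 4.0.16 (R 4.3.3) by its quasi-likelihood test with robust fitting (two-sided, Benjamini-Hochberg adjusted p under 0.05). The standard error is the log2 fold change over the square root of F. The comparison of 6 libraries was filtered and scaled anew, so its fold changes differ slightly from ratios of the printed CPM, which use the scaling of 8 libraries. TPM carries no composition factor. The test scripts were run on simulated counts with known fold changes. Alternatives were DESeq2 1.42.0, its size factors in edgeR, no composition factor, no filter, voom with quality weights and log2(FPKM + 1) or log2(FPKM + 0.1) in limma 3.58.1, each library left out in turn, and a replicate block.

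The members, lists and the comparison of 6 libraries were chosen with earlier results of these data known. Fold changes were given for members past the threshold in either comparison and for the member of highest TPM in each role, and of the other pathway genes for up to 2 of a role with the smallest p among those that passed. Promoter windows came from RefSeq on GRCm38.p6. In GENCODE M21, 9 of the 34 members share exon bases with a gene on the opposite strand, among them Bmp4, Bmp5, Fst and Tgfb2, and 2 with a gene on the same strand, Smad5 and Tgfbr3, and reads of such genes cannot be told apart here. Python 3.11.15, pandas 2.3.3, numpy 2.4.6 and matplotlib 3.10.9 made the tables and figures. No pair of libraries of a group agreed within sampling noise (smallest chi-square per degree of freedom 29.5).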

Additional observations from a re-analysis of the deposited data

How the results depend on the processing

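With 6 libraries, the number of members called was 11. It was 11 with DESeq2, 17 with voom, 7 on log2(FPKM + 1) and 7 on log2(FPKM + 0.1), and 0 to 13 when 1 library was left out. All genes called were 3090 of 15115 (20.4%, against 32.4% of the members). They were 4538 with DESeq2, 6875 with voom and 180 to 5982 when 1 library was left out. With voom more members and more genes in all were called, so the member count alone is no result about the members. For the FPKM settings the count over all genes is not given here. Without a composition factor the calls of Bmp2 and Bmp4 were lost (adjusted p = 0.0534 and 0.0676), and on log2(FPKM + 1) those of Bmp2, Bmp5, Smad5 and Tgfbr3 (0.0543 to 0.0889). No direction of a called member turned in these alternatives. Bmpr1a, which did not pass, turned to -0.044 without a composition factor, to -0.081 on log2(FPKM + 1), to -0.085 on log2(FPKM + 0.1) and to -0.030 to 0.12 when 1 library was left out. With 8 libraries, 0 members and 0 genes were called. DESeq2 called 2 members and 2220 genes, voom 6 and 3720, and leaving out 1 library gave 0 to 2 genes. Without a composition factor the median log2 fold change of all genes moved from 0.07 to -0.17.

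Among fold changes of 8 libraries, none of which passed, several turned. With voom Bmp4 was 0.23, Id3 0.37 and Tgfb1 -0.080. On log2(FPKM + 1) Fst was -0.97, Id1 -1.32, Smad7 -0.018, Tgfbr3 -0.18 and Ltbp3 -0.52. On log2(FPKM + 0.1) Bmp5 was -0.41, Fst -1.58, Id1 -1.42, Smad7 -0.051, Tgfbr3 -0.78, Bmp3 -0.58 and Ltbp3 -0.86. When 1 library was left out, Bmp4 was -0.31 to 0.30, Id3 -0.56 to 0.15, Fst -0.022 to 0.60, Id1 -0.18 to 0.58 and Ltbp3 -0.11 to 0.50. The cause of these changes was not tested.

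Replicate numbers 1 to 3 occur in both groups. Deviations of same-numbered libraries from their group means correlated at -0.0733, 0.129 and -0.0297 across genes. WT library 2 correlated best with its own number, and WT libraries 1 and 3 did not. The mean of the knockdown label mixes libraries 1 and 2 with the rest, so these values cannot decide whether same-numbered libraries belong together. With the replicate number as a block, 0 members and 0 genes were called with 8 libraries. Numbers 4 and 5 occur only under the knockdown label, so the fold changes of that fit compare libraries 1 to 3 of each label. Knockdown-labelled libraries 1 and 2, highest in leukocyte markers, are among them. There Bmp5 was -1.79, Fst -3.37, Id1 -2.96, Smad4 -0.42, Smad5 -0.57, Smad7 -0.15, Tgfbr3 -2.51, Bmp3 -5.32, Ltbp3 -1.98 and Pmepa1 -0.42. No paired analysis was possible with 6 libraries because the groups then share only the number 3.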

Other observations

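The libraries labelled knockdown 3 to 5 differed among themselves in these genes. Of the 34 members, 15 were lowest in library 3 and highest in library 5 of that label, a pattern that 25% of the 15115 genes tested showed. Among them were Bmpr2 (51.3 and 134 CPM), Smad5 (70.4 and 170 CPM), Tgfbr3 (21.9 and 72.8 CPM), Smad4 (98.9 and 157 CPM) and Id4 (48.9 and 107 CPM). Bmp4, Fst and Smad2 were the most even, with the highest of these 3 libraries 1.18, 1.12 and 1.08 times the lowest. Over the 34 members this ratio had a median of 1.59 in the libraries labelled knockdown 3 to 5 and 1.41 in WT. The pattern was noticed in the data and was not tested.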
